A study of Drosophila melanogaster with 8 samples.

Results

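The Mst genes (male-specific transcript) are a set of Drosophila melanogaster genes named for transcripts found only in males, most of them in the testis. Their transcripts were followed on expression arrays of larval wing discs, folded epithelia from which the adult wing and part of the thorax develop. A transcript was taken as a member when its symbol in the authors' deposited table, or the current RefSeq symbol found through a synonym, began with Mst and a digit. That rule found 11 transcripts of 10 genes among the 4379 listed transcripts of 3850 genes. The authors' table holds only transcripts that differed at least 1.5-fold between the genotypes, so the members were chosen by the same difference between mutant and wildtype that is described below. Their differences are therefore given as a description, with no test.

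RNA came from third-instar larvae of wildtype Oregon R and of age-matched homozygotes for a mutation of BEAF-32, which encodes a protein that binds chromatin domain boundaries. The labels give Oregon R as the strain of both groups, name no mutant allele, and do not give the sex of the larvae. Each genotype had 4 arrays, numbered 1_1, 1_2, 2_1 and 2_2, with 1 RMA-processed log2 value for each of 16637 transcripts. Arrays of 1 genotype that share the first number correlated at 0.9977 to 0.9986 over transcripts and were averaged as repeat runs, which leaves 2 replicates per genotype. All means are ± SD with n = 2. The series' design text names 2 biological and 2 experimental replicates without saying which number stands for which, so the spread between replicates may be technical.

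Drosophila testes form early, and in third-instar larvae they already hold spermatocytes. Many genes of late sperm development, the Mst genes among them, are transcribed in these spermatocytes, and their mRNAs are stored and translated only after meiosis. In elongating spermatids the histones are replaced by protamines and other small basic proteins, while cysteine-rich structural proteins are laid down in the growing tail. A wing disc holds no germ cells. In RNA from a dissected tissue, fewer cells of a type and less RNA per cell cannot be told apart.

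All 10 listed Mst genes were lower in the BEAF-32 mutant than in wildtype, by 1.6-fold to 6.91-fold. RefSeq has 24 genes with an Mst symbol, and 15 of these were not in the authors' deposited table. The median difference over genes, each taken by its brighter transcript, was -1.16 on the log2 scale. Over all 16637 transcripts the median difference was 0.06, and 44.2% of them were lower in the mutant. Of the 4379 transcripts that the authors' deposited table lists, 2184 (49.9%) were lower. On all 11 Mst transcripts, each of the 4 mutant arrays lay below each of the 4 wildtype arrays. This was the case for 24.4% of all transcripts and for 2091 of the 2184 lower ones in the authors' deposited table. With limma fitted over all transcripts, 7 of the 11 had an adjusted p under 0.05, against 6.08% of all transcripts called lower in the mutant. The calls needed both mutant replicates, because without either only 1 mutant sample is left. The median Mst difference was then -1.14 (without mutant replicate 1) or -1.17 (without mutant replicate 2). Nothing can be read from the counts of Mst transcripts, because listing already required a difference of at least 1.5-fold. Of the transcripts in the authors' deposited table, 23.1% were called lower. Those were 1012 of its 2184 lower transcripts.

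**Figure D1:**
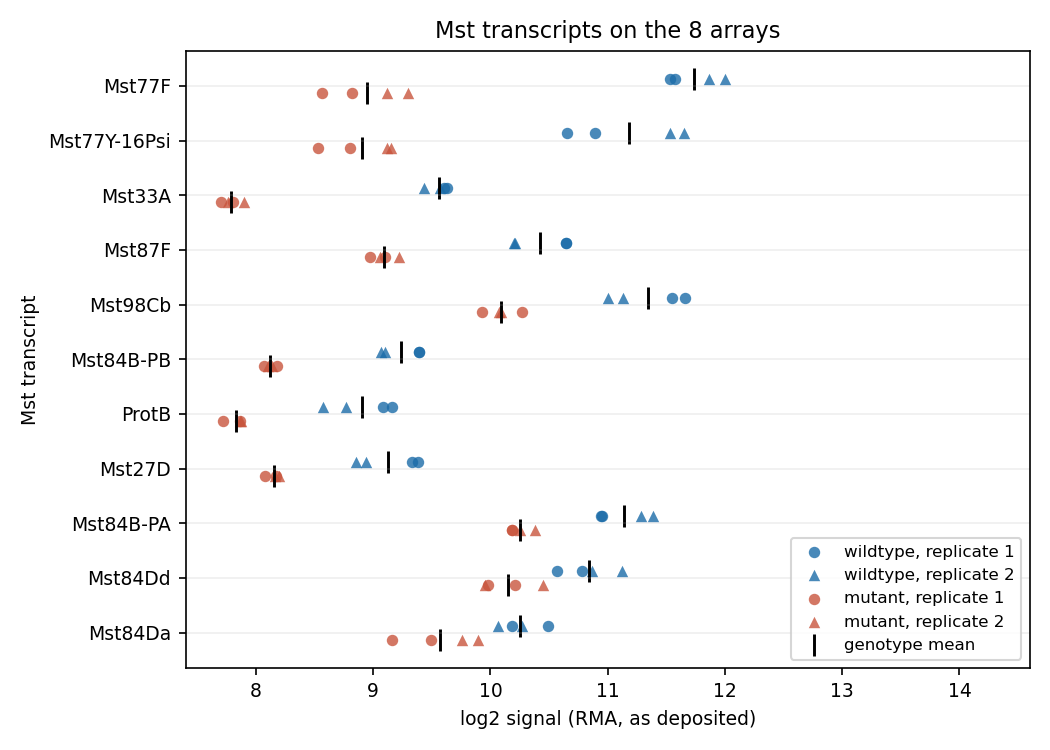
Log2 signal (horizontal axis) of the 11 Mst transcripts on the 4 wildtype arrays (blue) and the 4 BEAF-32 mutant arrays (red), with circles for replicate 1, triangles for replicate 2 and a black bar for the genotype mean. The red points lie to the left of the blue points on every line, by 2.22 for Mst77F and by 0.12 for Mst84Dd between the nearest arrays.

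Of the spermatid chromatin proteins, the member with the largest difference was Mst77F (gene FBgn0086915, chromosome arm 3L), which encodes a basic, linker-histone-like protein needed to shape and condense the sperm nucleus. Mst77F read 11.53 and 11.57 on the arrays of wildtype replicate 1, 11.86 and 12 on those of wildtype replicate 2, 8.82 and 8.56 on those of mutant replicate 1, and 9.12 and 9.3 on those of mutant replicate 2. Every wildtype array was more than 2 log2 units above every mutant array, and in both genotypes the arrays of replicate 2 were the higher ones. The means were 11.74 ± 0.27 in wildtype and 8.95 ± 0.37 in the mutant, a difference of -2.79 (SE 0.25), or 6.91-fold. It ranked 94th from the lowest among all transcripts.

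Mst77Y-16Psi (FBgn0085494, listed as CG40530) is annotated by RefSeq as a pseudogene on the Y chromosome. It belongs to the Mst77Y group, Y-linked relatives of Mst77F. Its wildtype values were 10.65 and 10.89 in replicate 1 and 11.53 and 11.65 in replicate 2, and its mutant values were 8.8 and 8.53 in replicate 1 and 9.12 and 9.15 in replicate 2. The arrays fell in the same order as for Mst77F, from wildtype 2_2 as the highest to mutant 1_2 as the lowest. The difference of the means, 11.18 ± 0.58 against 8.9 ± 0.33, was -2.28 (SE 0.34, 4.86-fold). No probe sequences were used here, and signal from Mst77F, from Mst77Y-16Psi and from other Mst77Y copies cannot be told apart. RefSeq names 6 genes of the Mst77Y group, and the other 5 were not in the authors' deposited table.

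ProtB (FBgn0013301, listed as Mst35Bb, arm 2L) encodes a protamine, one of the proteins that replace histones in the sperm nucleus. It read 9.16 and 9.08 in wildtype replicate 1, 8.57 and 8.77 in wildtype replicate 2, and 7.72 to 7.87 on the mutant arrays. The wildtype replicates did not overlap, and the mutant arrays lay close together below both. Means were 8.9 ± 0.31 and 7.83 ± 0.05, a difference of -1.07 (SE 0.19, 2.1-fold). All 4 mutant values were below the lower quartile of their array, which was 8.07 to 8.16 on mutant arrays, and no closer than 0.89 to the lowest value of the array. Signal over background is not known for these arrays. The gene next to it in RefSeq order, ProtA, the other protamine gene, was not in the authors' deposited table.

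The cysteine-glycine-proline-rich proteins of the sperm tail were represented by Mst87F, Mst98Cb, Mst84Dd and Mst84Da, all on arm 3R. Mst87F (FBgn0002862) read 10.64 on both arrays of wildtype replicate 1 and 10.2 and 10.21 on those of replicate 2. On the mutant arrays Mst87F read 8.97 and 9.1 in replicate 1 and 9.06 and 9.22 in replicate 2. Repeat arrays lay close together, and wildtype replicate 2 was lower than replicate 1 (a difference of -0.44). The mutant mean differed by -1.55 from wildtype replicate 1 and by -1.12 from wildtype replicate 2. The difference of the means, 10.42 ± 0.31 and 9.09 ± 0.08, was -1.33 (SE 0.19, 2.52-fold).

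Mst98Cb (FBgn0004171) behaved alike over the arrays. Its values were 11.66 and 11.55 in wildtype replicate 1, 11.13 and 11 in wildtype replicate 2, and 9.93 to 10.27 on the mutant arrays. Replicate 1 was again the higher wildtype replicate, by more than the gap between its repeat arrays. The means of 11.34 ± 0.38 and 10.09 ± 0.01 gave a difference of -1.25 (SE 0.22, 2.37-fold). The repeat arrays of mutant replicate 1 differed by 0.34, so the mutant SD of 0.01 understates the spread of the arrays. After each transcript's own mean was taken off, Mst87F and Mst98Cb differed by a root mean square of 0.11 over the 8 arrays. Among pairs of Mst transcripts of different genes the closest were ProtB and Mst27D, at 0.06.

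Mst84Dd (FBgn0004175) and Mst84Da (FBgn0004172) stand at the ends of a row of neighbouring genes, with Mst84Dc and Mst84Db between them in RefSeq order. Neither Mst84Dc nor Mst84Db was in the authors' deposited table. Mst84Dd and Mst84Da were the members closest to the limit of the list, at 1.61-fold and 1.6-fold. Transcripts just outside the limit carry no gene name here. Mst84Dd read 10.57, 10.78, 10.87 and 11.12 on the wildtype arrays and 10.21, 9.98, 9.95 and 10.45 on the mutant arrays, in the order 1_1, 1_2, 2_1 and 2_2. The nearest arrays of the genotypes were 0.12 apart, while the repeat arrays of mutant replicate 2 differed by 0.5. Its difference of -0.69 (SE 0.16) rests on means of 10.84 ± 0.23 and 10.15 ± 0.08.

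Mst84Da showed wildtype values of 10.18, 10.49, 10.06 and 10.27 and mutant values of 9.16, 9.49, 9.76 and 9.89, in the same order of arrays. Its mutant replicates differed by 0.5, and over the 4 pairings of a mutant with a wildtype replicate its difference ran from -1.01 to -0.34. The means were 10.25 ± 0.12 and 9.57 ± 0.36, a difference of -0.68 (SE 0.22). Neither Mst84Dd nor Mst84Da was among the 7 transcripts with an adjusted p under 0.05 in limma.

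The remaining members have other or less well-known roles. Mst33A (FBgn0028412, arm 2L) had the smallest SE of the 11 transcripts. It read 9.6, 9.63, 9.43 and 9.57 on the wildtype arrays and 7.8, 7.7, 7.76 and 7.9 on the mutant arrays, in the order 1_1, 1_2, 2_1 and 2_2. Its replicates differed little, by -0.12 in wildtype and 0.07 in the mutant (replicate 2 minus 1), and the genotypes lay 1.53 apart at their nearest arrays. Means were 9.56 ± 0.08 and 7.79 ± 0.05, a difference of -1.77 (SE 0.12, 3.4-fold). As for ProtB, all 4 mutant values of Mst33A were below the lower quartile of their array, and the nearest was 0.87 above the lowest value of its array.

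Mst27D (FBgn0051907, listed as CG31907, arm 2L) encodes a protein that links nuclear pores to microtubules in spermatids. It read 9.33 and 9.38 in wildtype replicate 1, 8.85 and 8.94 in wildtype replicate 2, and 8.08 to 8.2 in the mutant. Its means of 9.13 ± 0.33 and 8.15 ± 0.04 differed by -0.98 (SE 0.2, 1.97-fold), and the difference was -1.21 against wildtype replicate 1 and -0.75 against wildtype replicate 2.

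Mst84B (FBgn0037464, listed as CG1988, arm 3R) was the gene with a pair of transcripts in the table, PA and PB. Mst84B-PB read 9.39 on both arrays of wildtype replicate 1, 9.07 and 9.1 on those of replicate 2, and 8.07 to 8.18 in the mutant, a difference of -1.11 (SE 0.16, 2.16-fold). Mst84B-PA read 10.94 and 10.95 in wildtype replicate 1, 11.28 and 11.39 in wildtype replicate 2, and 10.18 to 10.38 in the mutant, a difference of -0.89 (SE 0.18, 1.85-fold). Both transcripts were lower on all mutant arrays. They ordered the wildtype replicates in opposite ways, PB with replicate 1 higher by 0.3 and PA with replicate 2 higher by 0.39.

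**Figure D2:**
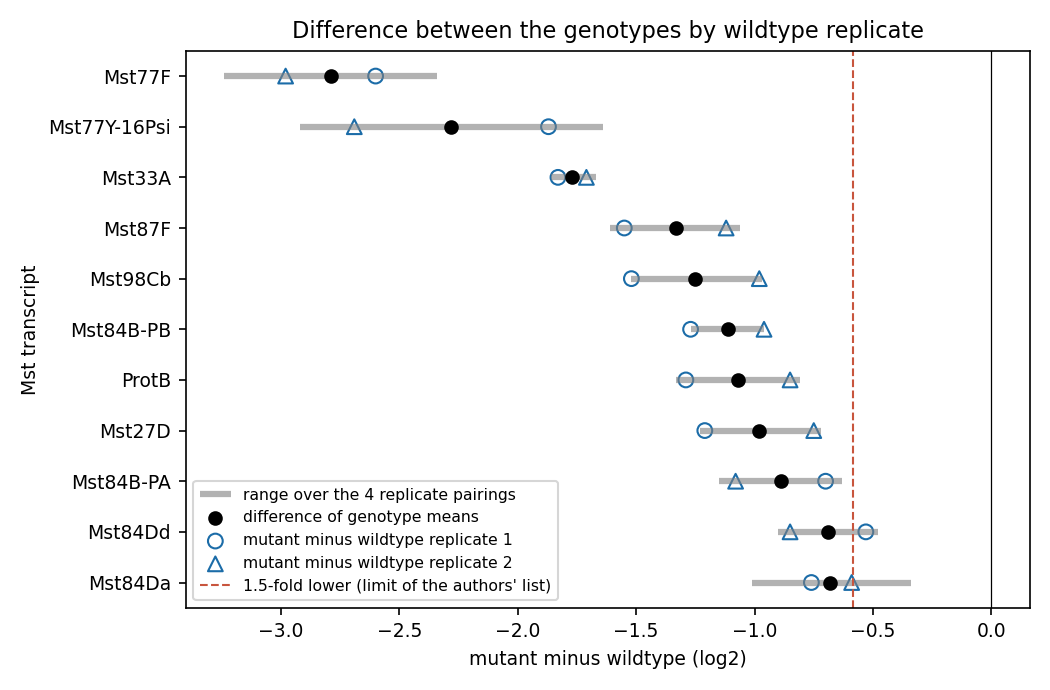
Mutant minus wildtype on the log2 scale for each Mst transcript: black points are the difference of the genotype means, grey bars the range over the 4 pairings of replicates, and open blue circles and triangles the mutant mean against wildtype replicate 1 and replicate 2 alone. The bars of all 11 transcripts lie below 0, and those of Mst84Dd and Mst84Da cross the dashed line of the 1.5-fold limit.

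The size of the difference depended on the replicate taken. Over the 11 transcripts, 7 were higher in wildtype replicate 1 (Mst33A, Mst87F, Mst98Cb, Mst84B-PB, ProtB, Mst27D and Mst84Da) and 4 in replicate 2 (Mst77F, Mst77Y-16Psi, Mst84B-PA and Mst84Dd). Their wildtype replicates differed by a median size of 0.387, against 0.258 over all transcripts. The mutant replicates differed by a median of 0.108, against 0.122 over all transcripts, but by 0.52 for Mst77F, 0.5 for Mst84Da and 0.47 for Mst77Y-16Psi. Replicate 2 was the higher mutant replicate for 9 of the 11 transcripts, against 50.9% of all transcripts. The largest spread was that of Mst77Y-16Psi, at 0.82 between the wildtype replicates. Its difference was -1.87 against wildtype replicate 1 and -2.69 against wildtype replicate 2. No transcript changed direction against either wildtype replicate.

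**Figure D3:**
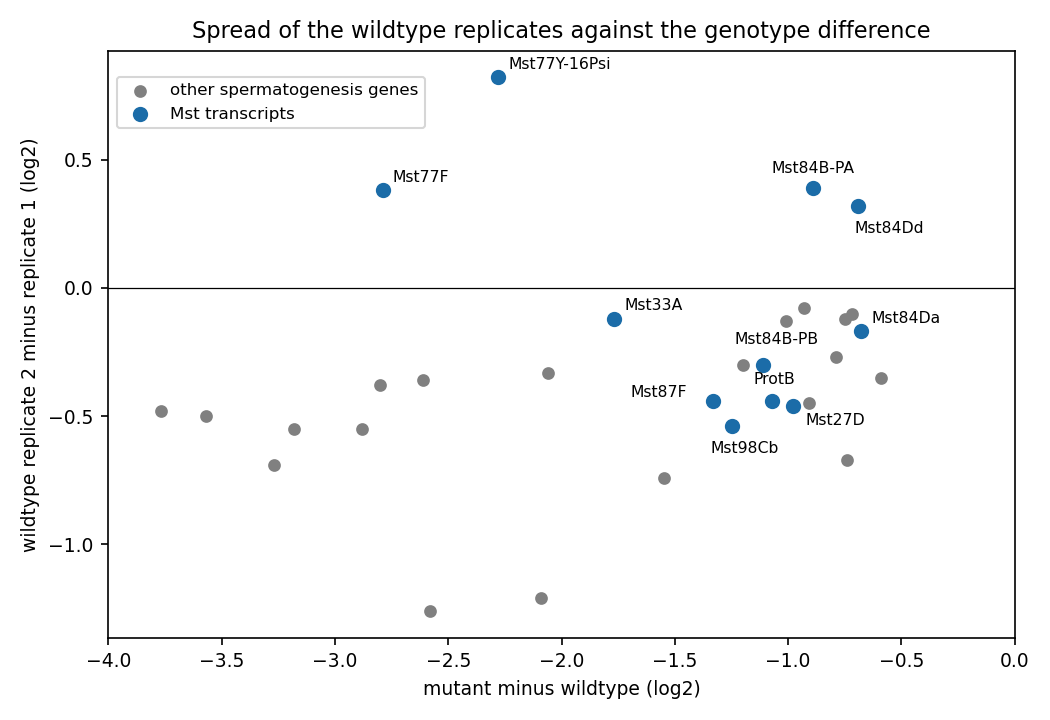
Wildtype replicate 2 minus replicate 1 (vertical axis, log2) against mutant minus wildtype (horizontal axis, log2) for the 11 Mst transcripts (blue) and 20 other genes of the sperm tail and spermatocyte lists (grey). All 20 grey points lie below 0, as do 7 blue points, while Mst77F, Mst77Y-16Psi, Mst84B-PA and Mst84Dd lie above it.

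Other genes of spermatogenesis were lower in the mutant with them. Of 35 genes on a list for the spermatid and sperm tail, members left out, 16 were in the authors' deposited table. All 16 were lower, 11 of them fell (limma, adjusted p under 0.05) and none rose, with a median of -2.08. Among all transcripts 6.08% were called lower, and 23.1% among those in the authors' deposited table (1012 of its 2184 lower ones). The largest falls were of S-Lap1 (from 12.99 to 9.23, a difference of -3.77), S-Lap4 (-3.57), S-Lap8 (-3.27) and S-Lap3 (-3.18), which encode leucyl aminopeptidases abundant in sperm. In all, 7 S-Lap genes were listed. Of 23 spermatocyte genes 4 were listed and all 4 fell: betaTub85D, the testis beta-tubulin, from 11.36 to 8.76 (-2.61), bol, which acts in the entry into meiosis (-1.2), twe, the meiotic Cdc25 phosphatase (-0.75), and fzo, the mitofusin of spermatids (-0.72). Since listed genes had to differ by 1.5-fold, these counts show direction and size and are no test of the lists.

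These 20 genes had a median difference of -1.81, against -1.16 for the Mst genes, and all 20 had every mutant array below every wildtype array. So had 2091 of the 2184 lower transcripts of the authors' deposited table, and 24.4% of all transcripts. All 20 were higher in wildtype replicate 1 than in replicate 2, by a median of 0.42 (replicate 2 minus 1, -0.42). Among listed transcripts lower in the mutant, 76.6% were higher in wildtype replicate 1. Linear signals were summed over the genes of a list on each array. The sum of the 16 sperm tail genes was 34340 to 49329 on wildtype arrays and 8700 to 9497 on mutant arrays, and that of the 4 spermatocyte genes 10967 to 13399 and 4471 to 5295. For the 10 Mst genes the sums were 16026 to 18379 and 6034 to 7330.

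Of 24 genes on the accessory gland list, which holds Mst57Da, Mst57Db and Mst57Dc, only Acp95EF was listed. Acp95EF, a seminal peptide gene for which RefSeq also records Mst95E as an older name, fell from 10.14 to 8.63. Of 12 genes on the Y-linked list, such as the axonemal dynein genes kl-2, kl-3 and kl-5, 0 were listed. Of 12 sex determination and dosage compensation genes 3 were listed and 0 passed with limma, though all 3 had an unadjusted p under 0.05. They were mle and msl-2, which belong to the complex that raises expression of the male X chromosome, at -0.77 and -0.66, and dsx at -0.74. Of 18 germ cell genes 5 were listed with 0 passing (3 at an unadjusted p under 0.05), with sums of 21723 to 23846 in wildtype and 16764 to 18277 in the mutant. They were mixed in direction, with 3 higher (zpg at 0.79, mei-P26 at 0.61 and piwi at 0.6) and 2 lower (bru1 at -0.78 and Tudor-SN at -0.59). For zpg and mei-P26 the arrays of the genotypes overlapped. Their wildtype replicates differed by more than the genotypes, at 1.29 and -1.13 (replicate 2 minus 1). Tudor-SN, from 14.27 to 13.68, was far brighter than the other listed germ cell genes and made up most of the germ cell sums. An unlisted gene may be absent from the array or differ by less than 1.5-fold. Only 2 of the 12258 unlisted transcripts passed that fold. On the spermatid chromatin list only thw was listed beside the members, and it rose by 2.61. Whether thw belongs on that list is not sure.

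**Figure D4:**
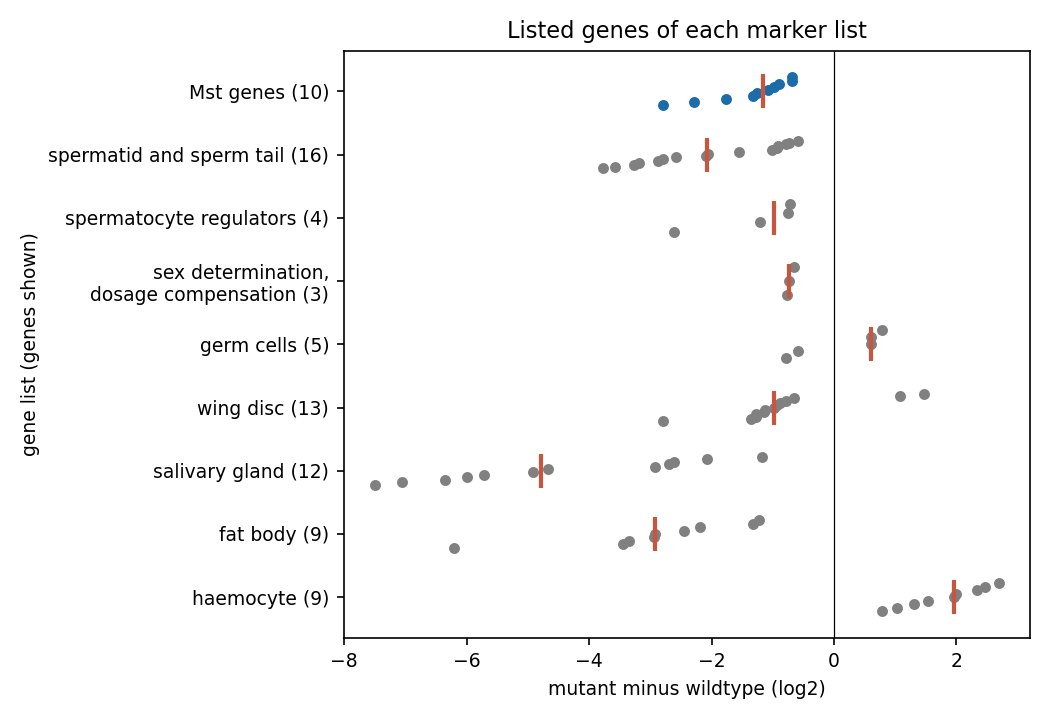
Mutant minus wildtype (horizontal axis, log2) of the genes of the marker lists drawn here, as found in the authors' deposited table. Each point is 1 gene, with the number of genes in brackets and the list median as a red bar. The lists for spermatid chromatin (only thw, at 2.61), accessory gland, and cyst cells and somatic gonad are not drawn. Mst genes (blue) and the sperm tail and spermatocyte genes lie wholly below 0. So do the sex determination and dosage compensation, salivary gland and fat body genes, and haemocyte genes lie wholly above it.

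Markers of other tissues differed in the same samples. Their counts stand beside the same shares called lower (6.08% of all, 23.1% of listed, and 1012 of the 2184 lower listed transcripts). All 12 listed salivary gland genes of 13 fell, with a median of -4.79 and summed signals of 206543 to 228339 in wildtype and 12512 to 14496 in the mutant. Among them Sgs5, a glue protein gene, went from 14.73 to 7.23. Of 10 fat body genes 9 were listed, all lower with 5 falling and a median of -2.92, with sums of 151443 to 156262 in wildtype and 10714 to 36783 in the mutant. Of 13 haemocyte genes 9 were listed, all higher with 7 rising (background 3.89% of all transcripts called higher), with sums of 10694 to 16892 in wildtype and 40870 to 44486 in the mutant. PPO2, a prophenoloxidase gene of crystal cells, rose by 2.69 on the log2 scale. NimC2 is not on the haemocyte list, though NimC1 and NimC4 are, and it was lower in the mutant, at -2.77. Of 26 wing disc genes 13 were listed, 11 lower and 2 higher, with 6 falling and 1 rising, and sums of 45327 to 54182 and 30619 to 33376. Among them ap, which defines the dorsal wing, read 13.79 in wildtype and 12.92 in the mutant, wg, the Wnt ligand of the wing margin, rose from 11.89 to 12.97, and al, a transcription factor gene of the disc, fell from 12.04 to 9.24. Both ap and wg lay above the array medians of 9.36 to 9.43 in each genotype. The mutant means of al (9.24), en (9.32) and hh (8.73) lay below these medians, and those of the other listed wing disc genes above. On the list for cyst cells and somatic gonad, whose genes the disc partly shares, 6 of 11 were listed, with 2 falling and 1 rising, and sums of 14530 to 16838 and 14662 to 17628. Its largest differences were Wnt2 at -1.4, which did not pass, hh at -1.27 and Fas3 at -1.25, and stg rose by 1.14. BEAF-32 itself went from 10.61 to 8.44. The part that these tissues, or the sex of the larvae, had in the lower Mst signals was not tested, and the mutant stock and BEAF-32 loss cannot be told apart.

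Of the 10 Mst genes 5 are on arm 3R, 3 on 2L, 1 on 3L and 1 on the Y chromosome. Their 19 immediate neighbours in RefSeq order included 2 genes of the authors' deposited table. Of all RefSeq protein-coding and pseudogene loci 24.9% were in it. Unlisted neighbours may be absent from the array, and some (Mst98Ca, ProtA, Mst84Dc and Mst84Db) are relatives of members. The 2 listed neighbours were djl, next to Mst84B, at -0.93, and Mnn1, next to Mst27D, at -0.84. Next to djl lies dj, which encodes a sperm tail and sperm DNA protein and fell by 1.55 on the log2 scale, and djl, its relative, fell as well. This comparison of neighbours was chosen after the values had been seen.

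The genes whose values moved most like those of a member over the 8 arrays were looked for among 2188 named genes, by the root mean square difference after each gene's mean was taken off. For Mst77F these were NimC2 (0.2), Hr3 (0.23) and Fkbp14 (0.24), and for Mst77Y-16Psi PGRP-LA (0.15), GILT2 (0.18) and Tsp42Ek (0.18). For Mst33A they were E(spl)m2-BFM, Nep2 and dys, each at 0.09, and for Mst87F Uch-L5 (0.07), RhoU (0.07) and Srx (0.08). None of these is on the spermatogenesis lists. The likeness is a description over arrays that share 2 genotypes, and many genes differ between those.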

How the data were processed

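Wing disc RNA was measured on 8 one-colour NimbleGen arrays, 4 per genotype. The deposited log2 values come from RMA, and Partek is also named, per the submitters' processing notes; no version, genome build or probe design is stated there. RMA equalises arrays, which can hide a shift shared by most genes. The authors' deposited table holds, for wildtype over mutant, ratios, fold changes, p-values and F statistics (scores); signs here are mutant minus wildtype. Its ratios were used as an alternative, and its p-values and scores were not. Array medians were 9.36 to 9.43 and lowest values 6.83 to 6.9. The number of arrays limits the precision.

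Gene names came from that table, updated through a RefSeq gene table (Release 6 plus ISO1 MT). Of 3850 genes, 2541 matched by symbol, 1079 by synonym, and 230 kept the file's name. Of the 10 members 6 matched by symbol and 4 by synonym. RefSeq has 24 genes with an Mst symbol, of which 9 are members; ProtB is a member through its name in the file. No sequences are shown because none were among the sources used here.

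limma 3.58.1 in R 4.3.3 (lmFit, eBayes) was fitted to all 16637 transcripts, with 2 averaged replicates per genotype, genotype as the only term, Benjamini-Hochberg adjustment over all transcripts and a threshold of 0.05. The words rose and fell are kept for genes past this threshold. Residual degrees of freedom were 2. The step was tested on simulated data. Python 3.11.15 and matplotlib 3.10.9 made the tables and figures. The members, lists and tests were chosen with earlier results of these data known. Named are all members, up to 4 genes of a list with the largest difference, the 3 genes most like each of 4 members, and BEAF-32; a gene is represented by its brighter transcript. A few others (dj, djl, Mnn1, ap, wg, Tudor-SN) are named for their place, role or signal, chosen after their values were seen. The lists include thw, swm and Acp65Aa, whose place on them is unsure. Same-numbered replicates of the genotypes deviated together with a correlation of 0.302 over transcripts, and nothing in the labels says that they are paired.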

Additional observations from a re-analysis of the deposited data

Results flagged for a closer look

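Across the 22 sets of 4 arrays (11 transcripts in each genotype), 1 array stood apart from the others. ProtB on mutant array 1_2 read 7.72, and the nearest mutant array read 7.86. The gap was 0.891 of the range of the 4 mutant arrays, above Dixon's critical value for 4 samples. Chance flags about 1 set in 20, and the 4 arrays are repeat runs of 2 replicates, so that they are not independent.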

How the results depend on the processing

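Regrouping the arrays, adding a block, filtering low transcripts and taking the authors' ratio leave the difference of a single Mst transcript the same by construction, and leaving out 1 of 2 replicates moves it by no more than their spread. Quantile normalization changed no sign, with Mst77F at -2.76 and Mst98Cb at -1.18. RMA had already equalised the arrays, so little movement was possible and nothing is read from this. The median Mst difference was -1.4 without wildtype replicate 2 and -1.03 without wildtype replicate 1. Counts of calls depended on how arrays were grouped. Of all transcripts 1659 were called in either direction, and 7 of 11 Mst transcripts. With 8 arrays as separate samples 8166 were called and 11 Mst transcripts, with averages over equal second numbers 12892 and 11, and with a random effect for the first number 3908 and 9. Leaving out each replicate gave 0 (without mutant replicate 1; 2353 at an unadjusted p under 0.05) to 5333 calls (without wildtype replicate 2), and 0 to 10 Mst transcripts. Without mutant replicate 2 there were 21 calls, and without either mutant replicate 0 Mst transcripts; the lone mutant sample is then assumed to vary like the wildtype pair. With a replicate block, pairing equal first numbers of the genotypes, 2394 transcripts and 9 Mst transcripts were called. Quantile normalization gave 2043 and 8, and leaving out transcripts under the first quartile 1749 and 8.

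With 2 replicates per genotype and no probe-level signals, values near the floor of an array bound the differences that can be seen. This holds for ProtB and Mst33A, with all 4 mutant values below the lower quartile of their array. Mst84B-PB and Mst27D each had 1 mutant value below it.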
